A study of Rattus norvegicus with 12 samples.

Results

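Cyclic AMP (cAMP) signalling was measured through 61 genes for the enzymes that make cAMP, the phosphodiesterases that break it down, the protein kinase A (PKA) subunits, inhibitors and anchors that act on it, the Epac exchange factors, and the CREB family of transcription factors with its coactivators. The genes were picked by symbol from the platform annotation of the array, in families chosen with earlier results of these data known. The brightest probe set of a gene on average stood for that gene. These genes are 61 of the 14218 genes that have a probe set with a single symbol. To them belong 108 of the 31099 probe sets on the array. Of the 61 members, 59 were above the signal cutoff of 19.7 (4.3 on the log2 scale) on at least 3 arrays and entered the test with 13253 genes in all. The PKA anchor Akap4, known from sperm, and the phosphodiesterase Pde7b lay below the cutoff on all 12 arrays. Adcy1, Adcy7, Akap2, Pde11a and Pde6c belong to the same families but have no probe set with a single symbol, and were not analysed here.

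RNA came from the parietal cortex of 12 male F344 rats (Fischer 344, an inbred strain kept by the National Institute on Aging for aging work), 6 young (3 to 5 months in the labels) and 6 aged (21 to 23 months), with 1 Affymetrix RAE230 2.0 array per rat. All of the rats, young and aged, had been fitted with telemetry for sleep recording, trained in the Morris water maze and killed after its probe trial, so every value below describes trained and instrumented animals and none an untrained one. The sample titles say parietal cortex, whereas frontal cortex is given as the tissue elsewhere in the labels. Of 15 cortical marker genes, the 14 with a probe set of a single symbol were all above the cutoff. The glutamate transporter gene Slc17a7 was at 4556 ± 146 in the young and 4215 ± 404 in the aged group (mean signal ± SD, n = 6). All such genes of the striatal (14), hippocampal (9), thalamic (9) and choroid plexus (10) lists also passed the cutoff. Passing it therefore does not tell one region, or one part of cortex, from another.

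Cyclic AMP is made from ATP by adenylyl cyclases when a receptor coupled to the stimulatory G protein is engaged, and is hydrolysed by phosphodiesterases, which set how far and how long the signal reaches. It binds the regulatory subunits of PKA and thereby frees the catalytic subunits, and it also opens the Epac proteins, which activate the small GTPase Rap. PKA phosphorylates CREB, which binds cAMP response elements in promoters, and in cortex this route is known for its part in long-term memory, in arousal and in the regulation of genes by neuronal activity.

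Crem was the transcription factor gene of the family with the largest difference, and its short repressor form, ICER, is known to start from an internal promoter with cAMP response elements. The stretches shown here are therefore those before the 3 starts of Crem listed by RefSeq. Stretches of Pde4d and Pde8a, the phosphodiesterases with the smallest p-values, are shown beside them. Of the 5 starts listed for Pde4d, the start shown is that with a match in the 100 bases before it. Every stretch shown holds a match, so the stretches do not tell how common a match is. All stretches are from build GRCr8 and the plus strand, read 5′ to 3′. Capitals mark matches to the palindromic element TGACGTCA or to its core TGACG on either strand.

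Crem, first start, chr17:58933966-58934065: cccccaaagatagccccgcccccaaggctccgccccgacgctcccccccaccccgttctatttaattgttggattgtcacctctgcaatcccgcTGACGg
Crem, internal start, chr17:58984697-58984796: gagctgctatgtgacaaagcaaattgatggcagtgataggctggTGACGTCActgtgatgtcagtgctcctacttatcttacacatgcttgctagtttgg
Crem, last start, chr17:58985445-58985474: ttcaaagggcTGACGTCAttacatttcctg
Pde4d, chr2:42767517-42767616: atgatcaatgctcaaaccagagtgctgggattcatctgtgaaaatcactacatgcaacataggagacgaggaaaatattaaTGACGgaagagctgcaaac
Pde8a, chr1:144575369-144575468: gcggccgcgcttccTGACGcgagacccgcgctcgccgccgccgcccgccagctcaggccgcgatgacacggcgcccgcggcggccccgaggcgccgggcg

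The full element lay 56 bases before the internal start of Crem and 35 bases before its last start, and a further match, not shown, lay 40 bases after the last start. In windows of 300 bases (250 before and 50 after a start), it was found in 2 of the 65 windows of the 49 members with an entry, both of them in Crem, and in 1.83% of all 33469 windows. The core, which the full element contains on both strands, was found in 26.2% of the member windows and 21.2% of all windows. It lay 19 bases before the Pde4d start shown, one of 5 listed for this gene, and 86 bases before the start of Pde8a. A match is a description of the letters only. The array does not tell which start was used.

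No member passed an adjusted p of 0.05 in limma (Benjamini-Hochberg over all 13253 genes), the smallest being 0.189 for Pde4d. Only 7 of all genes, 0.0528%, did so. At an unadjusted p of up to 0.05, 7 of the 59 members were called, 5 lower and 2 higher in aged rats. Over all genes 9.11% were called at this level, 2.62% lower and 6.49% higher, against 8.47% of the members lower and 3.39% higher. Over all members 25 means of log2 signal were higher and 34 lower in aged rats, the scale on which directions are counted here, and the median log2 difference, aged minus young, was -0.03, beside 0.02 over all genes. Of all 13253 genes, 7545 means (56.9%) were higher and 5708 lower. The median of all genes moved from 0.02 to 0.00 with quantile normalization and to -0.05 with median centring, and the split of the called genes turned with it, from 860 higher and 347 lower to 589 and 471 and to 414 and 884. For the members the split was 2 higher and 5 lower as deposited, 2 and 7 with quantile normalization, and 1 and 11 with median centring. All p-values of members below are limma's, and none passed the adjustment.

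**Figure D1:**
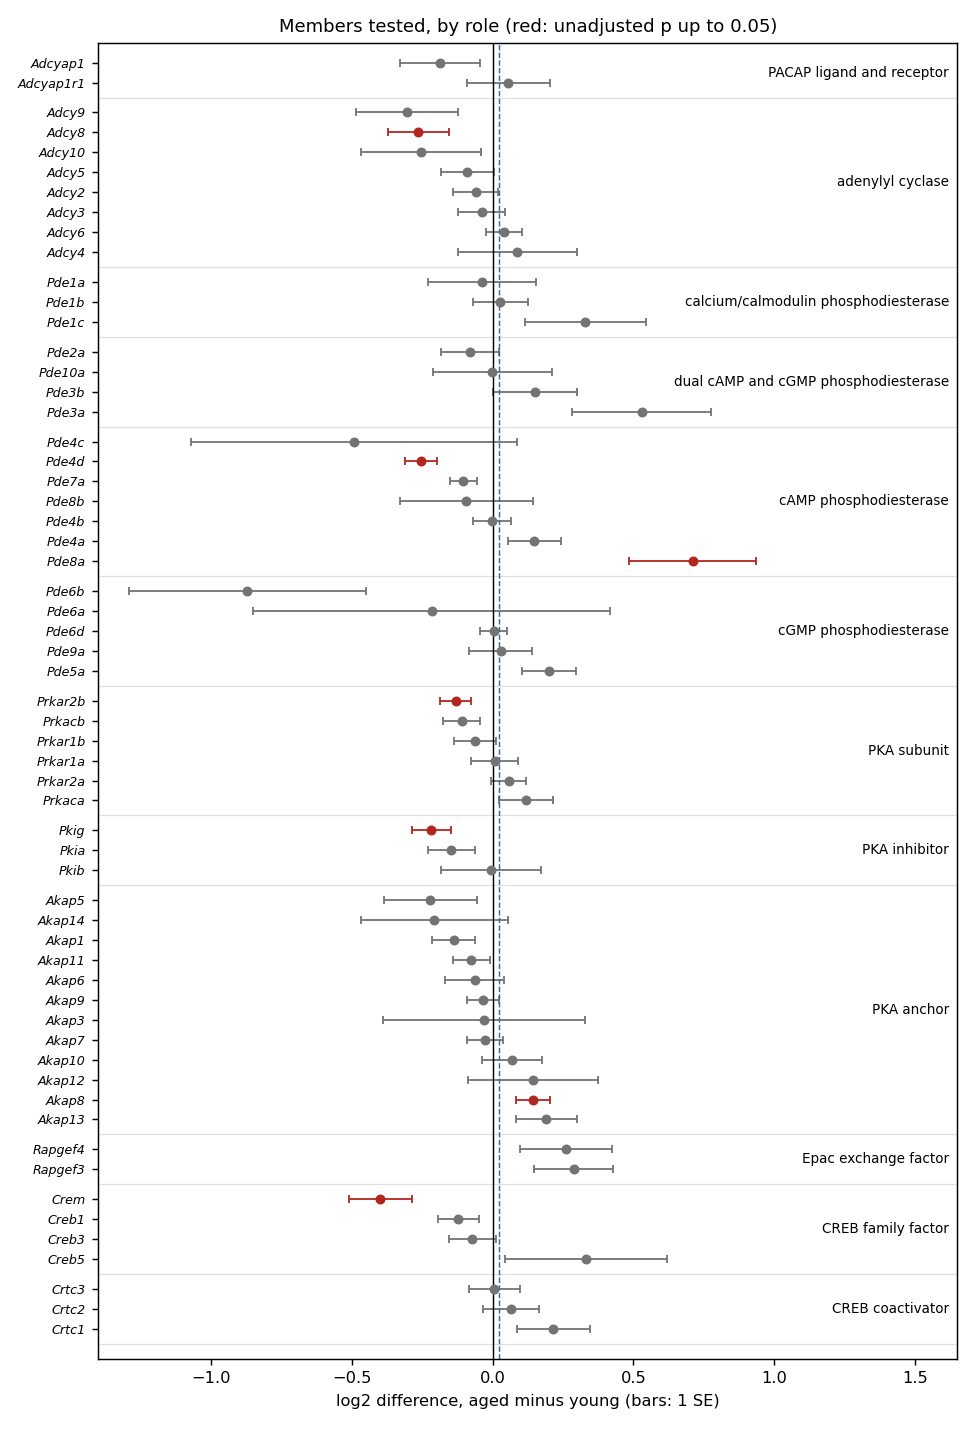
Log2 difference, aged minus young, of each of the 59 members tested (points, bars of 1 SE, 6 rats per group), in blocks by role. Red points are the 7 members at an unadjusted p up to 0.05, of which Pde8a and Akap8 lie to the right of 0, and the dashed line is the median of all genes tested, 0.02.

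Pde4d and Pde8a, both of which hydrolyse cAMP and not cGMP, differed with age in opposite directions. Pde4d encodes a member of the rolipram-sensitive PDE4 family, and its signal was 1498, 1578, 1444, 1512, 1663 and 1360 in young rats 1 to 6, and 1217, 1330, 1238, 1216, 1299 and 1275 in aged rats 1 to 6. Every aged rat lay below every young rat, with young rat 6 closest to the aged group. Aged minus young, this was -0.26 ± 0.06 on the log2 scale (SE), 0.838 of the young level, with an unadjusted p of 0.000749 (limma, adjusted p = 0.189). With each rat left out in turn the difference ranged from -0.28 to -0.23 and kept an unadjusted p of 0.00235 or less. Among all genes, 0.241% had every aged rat below every young rat, and among the members Pde4d and Pkig did. No member had every aged rat above every young rat, which 0.536% of all genes had.

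The other probe sets of Pde4d were dimmer and differed less. They had log2 differences of -0.16 ± 0.20 and -0.07 ± 0.15 (SE), with unadjusted p-values of 0.434 and 0.662 over probe sets in limma. When the 3 probe sets were averaged, the difference for Pde4d was -0.16 and its unadjusted p 0.187. The call on Pde4d therefore rests on its brightest probe set.

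Pde8a encodes a phosphodiesterase of high affinity for cAMP that rolipram does not inhibit. Its signal was 299, 244, 179, 263, 120 and 181 in young rats 1 to 6, and 465, 252, 328, 398, 270 and 344 in aged rats 1 to 6. Aged rats 1 and 4 were the highest and young rat 5 the lowest, and the groups overlapped, since aged rats 2 and 5 lay below young rat 1. The log2 difference was 0.71 ± 0.22 (SE), 1.64-fold, with an unadjusted p of 0.00843 (adjusted p = 0.371), and it stayed between 0.55 and 0.82 with an unadjusted p of 0.0206 or less with each rat left out. The second probe set of Pde8a, at a young mean of 40.7, had a log2 difference of 0.42 ± 0.25 (SE) and an unadjusted p of 0.114.

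Within each age group, the rats with much Pde8a signal tended to be those with much myelin signal. All 17 tested genes of 20 myelin and oligodendrocyte markers had a higher mean in aged rats, with a median log2 difference of 0.24, and 1 of them, Myrf, was called at an unadjusted p up to 0.05. Of all genes, 56.9% had a higher mean and 6.49% were called higher. The summed signal of these 17 ranged from 39736 to 59638 in young and from 40775 to 71044 in aged rats. The mean log2 deviation of these 17 from the young mean was 0.81 in aged rat 1 and 0.73 in aged rat 4, the highest for Pde8a, and -0.27 in young rat 5, the lowest for Pde8a. It was -0.38 in aged rat 2, the lowest of all rats, where Pde8a was the lowest of the aged group. At 252, Pde8a in aged rat 2 was still above young rats 2, 3, 5 and 6, all of which had more myelin signal. The part of the amount of white matter in the difference in Pde8a was not tested. In tissue of mixed cells, more cells of a type and more RNA per cell cannot be told apart, here and for every gene below.

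**Figure D2:**
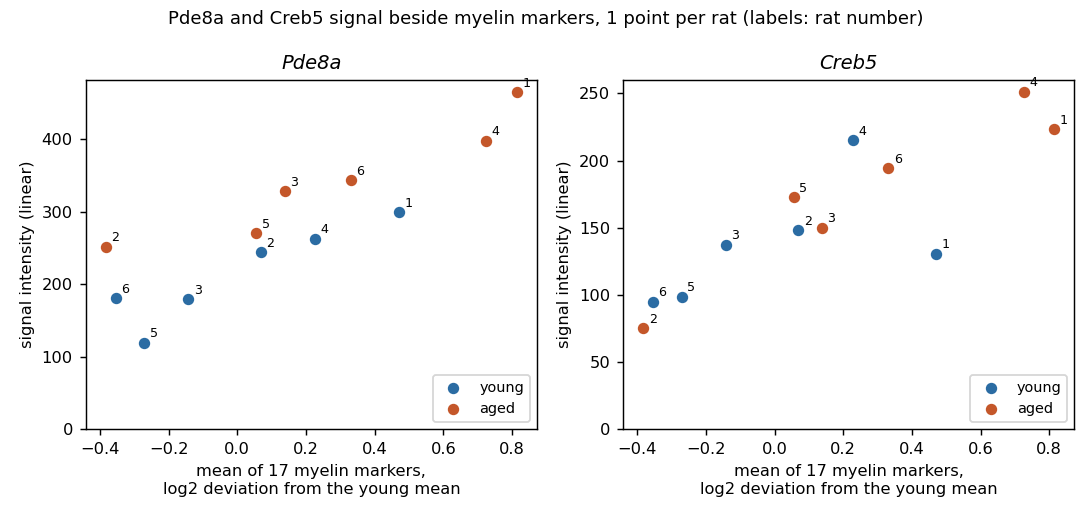
Signal intensity of Pde8a (left) and Creb5 (right) in each rat, against the mean log2 deviation of 17 myelin markers from the young mean in the same rat. For Pde8a, aged rats 1 and 4 stand at the upper right at 465 and 398, and young rats 3, 5 and 6 at the lower left, between 120 and 181.

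Of the other PDE4, PDE7 and PDE8 genes none was called. Pde7a had an unadjusted p just over 0.05, with 285 to 305 in young (median 297) and 255 to 289 in aged rats (median 280) and a log2 difference of -0.10 ± 0.05 (SE). Pde7a was called under 7 of the 28 alternative settings, among them both other scalings. Pde4b, the other PDE4 gene with strong signal in these samples, averaged 2267 ± 156 in the young and 2265 ± 179 in the aged group (SD, n = 6), and the 95% interval of its log2 difference ran from -0.15 to 0.15. Whether Pde4d and Pde4b differed from each other in their change with age was not tested. Pde4a, Pde4c and Pde8b had log2 differences of 0.15, -0.49 and -0.09, with unadjusted p-values of 0.141, 0.413 and 0.701, and Pde4c lay above the cutoff on 4 young and 2 aged arrays.

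Among phosphodiesterases that hydrolyse cGMP, alone or beside cAMP, Pde3a, Pde5a and Pde6b had the smallest p-values, none of them called, and Pde3a and Pde6b lay near the cutoff. Pde3a, the cGMP-inhibited form known from platelets, heart and oocytes, was 15 to 36 in young and 21 to 43 in aged rats, with medians of 22 and 33. The log2 difference of Pde3a was 0.53 ± 0.25 (SE, unadjusted p = 0.0529), and the groups overlapped. Pde6b, the beta subunit of the rod photoreceptor enzyme, was above the cutoff in 5 of 6 young and in no aged rat, with signals of 9 to 28 and 3 to 18, so its young level was at least 1.06-fold the aged one, with an adjusted p of 0.563. Pde5a, a cGMP-specific enzyme of vascular smooth muscle, was 53 to 73 in young and 65 to 84 in aged rats, with a log2 difference of 0.20 ± 0.10 (SE) and an unadjusted p of 0.061. Pde6a was above the cutoff in 2 rats of each group.

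The calcium- and calmodulin-dependent enzymes Pde1a and Pde1b had strong signal and no call. Pde1a differed by -0.04 ± 0.19 and Pde1b by 0.03 ± 0.10 (log2, SE), with 95% intervals of -0.45 to 0.38 and -0.18 to 0.24. Pde1c, with signals of 26 to 50 in young and 32 to 59 in aged rats, differed by 0.33 ± 0.21 (unadjusted p = 0.153). Pde2a, which cGMP stimulates, differed by -0.08 ± 0.10 (unadjusted p = 0.444), and Pde3b by 0.15 ± 0.15 (unadjusted p = 0.335). Pde10a, a gene known for its high level in striatum, ranged from 695 to 1603 in young and from 690 to 1255 in aged rats with a log2 difference of -0.00. The 14 tested striatal markers, Drd1 and Drd2 among them, had a median log2 difference of 0.10 with none called. Over all 19 phosphodiesterases tested, 9 were higher and 10 lower, with 1 called each way.

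Adenylyl cyclases were lower in aged rats in 6 of 8 genes, with 1 called. Adcy8, a cyclase stimulated by calcium and calmodulin, had signals of 466, 344, 543, 458, 435 and 457 in young rats 1 to 6 and 360, 384, 383, 365, 441 and 310 in aged rats 1 to 6. The groups overlapped, because young rat 2 was lower than all aged rats but number 6, and aged rat 5 was the highest of its group. For Adcy8 the log2 difference was -0.26 ± 0.11 (SE), with an unadjusted p of 0.0324 (adjusted p = 0.503), and Adcy8 was called in 5 of the 12 fits with 1 rat left out.

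Adcy9, a cyclase that forskolin stimulates poorly, was 241 to 482 in young and 210 to 346 in aged rats, a log2 difference of -0.30 ± 0.18 (SE, unadjusted p = 0.121). Adcy10, the soluble cyclase sensitive to bicarbonate, differed by -0.25 ± 0.21 (unadjusted p = 0.255). Adcy2, Adcy3, Adcy4, Adcy5 and Adcy6 had log2 differences between -0.09 and 0.09. Of the peptide PACAP and its receptor, which stimulate cyclases, Adcyap1 was 755 to 1010 in young and 622 to 1099 in aged rats, a log2 difference of -0.19 ± 0.14 (unadjusted p = 0.213), with aged rat 1 above all others. The receptor Adcyap1r1 differed by 0.06 ± 0.15 (unadjusted p = 0.711). Of its 4 probe sets 3 had a higher mean in aged rats, and a dim one differed by -0.68 ± 0.54 (log2, SE).

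Of the 3 inhibitors of the PKA catalytic subunit (PKI), Pkig was called lower in aged rats and the others were not called. Pkig, the gamma form, had signals of 2603, 2735, 2536, 2479, 2478 and 2944 in young rats 1 to 6, and 1939, 2286, 2455, 2201, 2407 and 2285 in aged rats 1 to 6. Each aged rat lay below each young rat, with aged rat 3 and young rats 4 and 5 the closest. Pkig differed by a log2 of -0.22 ± 0.07 (SE), 0.86 of the young level, with an unadjusted p of 0.00851 (adjusted p = 0.371), and Pkig was called in all 12 fits with 1 rat left out (-0.24 to -0.17).

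Pkia, the alpha form, known from brain and muscle, had a log2 difference of -0.15 ± 0.08 (SE, unadjusted p = 0.103), with signals of 2890 to 3556 in young and 2516 to 3320 in aged rats. Its 3 probe sets were all lower, and 1 of them, which does not represent the gene, had a log2 difference of -0.27 with an unadjusted p of 0.0264 over probe sets. Pkib averaged 137 ± 14.4 in the young and 141 ± 43.6 in the aged group (SD, n = 6), with a log2 difference of -0.01 ± 0.18 (unadjusted p = 0.972), whose sign turned under 10 of the 28 alternatives.

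Of the PKA subunits, Prkar2b was called. Prkar2b encodes the type II regulatory subunit that predominates in brain and fat, and its signal was 2548, 2567, 2609, 2538, 2537 and 2472 in young rats 1 to 6, and 2450, 2328, 2478, 2401, 2277 and 2038 in aged rats 1 to 6. The young rats lay within a narrow range, aged rat 3 was the one aged rat above the lowest young rat, and aged rat 6 was the lowest of all. For Prkar2b this gave a log2 difference of -0.13 ± 0.05 (SE), with an unadjusted p of 0.0334 (adjusted p = 0.506). Prkar2b was called in 5 of the 12 fits with 1 rat left out, and without aged rat 6 the difference was -0.09.

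The catalytic subunits Prkacb and Prkaca differed by -0.11 ± 0.07 and 0.12 ± 0.10 (log2, SE), with unadjusted p-values of 0.126 and 0.246. Prkar1a, the regulatory subunit found in most tissues, averaged 9307 ± 967 in the young and 9347 ± 881 in the aged group (SD, n = 6), with a 95% interval of the log2 difference of -0.17 to 0.19. Prkar1b and Prkar2a differed by -0.06 and 0.06, neither of them called.

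Among the 12 anchors (AKAPs) tested, which tether PKA to membranes, organelles and the cytoskeleton, 4 were higher and 8 lower in aged rats. With the mean of probe sets, and without aged rats 2 and 6, the split was 6 higher and 6 lower. Of all genes, 56.9% had a higher mean. Of the anchors, Akap8 was called. Akap8 encodes a nuclear anchor, and its signal was 865, 949, 814, 833, 863 and 780 in young and 980, 868, 935, 992, 889 and 971 in aged rats 1 to 6. The lowest aged rat lay above 5 of the 6 young rats, and young rat 2 lay within the aged range. The log2 difference was 0.14 ± 0.06 (SE) with an unadjusted p of 0.0338 (adjusted p = 0.506), but 0.07 with an unadjusted p of 0.309 after median centring. Akap8 was called in 5 of the 12 fits with 1 rat left out.

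Akap1, the mitochondrial anchor, differed by -0.14 ± 0.08 (unadjusted p = 0.0951), and Akap13 by 0.19 ± 0.11 (unadjusted p = 0.104). The 2 dimmer probe sets of Akap1 went the other way, by 0.10 and 0.06. Akap5, the postsynaptic anchor of PKA, calcineurin and protein kinase C, averaged 636 ± 86.1 in the young and 557 ± 149 in the aged group (SD, n = 6), a log2 difference of -0.22 with an unadjusted p of 0.207. Other anchors differed by -0.21 to 0.14.

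Both Epac genes had higher means in aged rats, and neither was called. Rapgef3 (Epac1), the form known from vessels and other tissues, was 174 to 266 in young and 220 to 361 in aged rats, a log2 difference of 0.29 ± 0.14 (SE, unadjusted p = 0.0615). Rapgef4 (Epac2), the form known from neurons and endocrine cells, was 2103 to 2987 in young and 1941 to 4227 in aged rats, a log2 difference of 0.26 ± 0.16 (unadjusted p = 0.138). For Rapgef4 5 of the 6 aged rats lay above all young rats, and aged rat 2 lay below all of them. In aged rat 6, which had the highest signal of both genes, the microglial and endothelial lists were also at their highest, at mean log2 deviations of 0.84 and 0.48. Their part in the values of the Epac genes was not tested.

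Crem, of the CREB family, was lower in aged rats. The signal of its representing probe set was 995, 1104, 750, 940, 1008 and 1107 in young rats 1 to 6, and 793, 614, 639, 767, 826 and 837 in aged rats 1 to 6. All young rats but number 3 lay above every aged rat, and young rat 3 lay inside the aged range. The log2 difference was -0.40 ± 0.11 (SE), 0.759 of the young level, with an unadjusted p of 0.00446 (adjusted p = 0.318). With each rat left out in turn it ranged from -0.47 to -0.34 and stayed called, the largest difference being that without young rat 3.

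Crem had the most probe sets of any member, 6, and all of them had a lower mean in aged rats, by -0.61 to -0.05 on the log2 scale. Those at -0.61, -0.47 and -0.40 had unadjusted p-values of 0.0232, 0.0171 and 0.0052 over probe sets in limma. The 6 come from the same 12 samples and are not independent measurements. The probe set at -0.24 (unadjusted p = 0.083) carries the suffix that the manufacturer gives to sets that may match several transcripts. Which of them report ICER was not determined here. The mean over the 6 probe sets differed by -0.35 with an unadjusted p of 0.0554. Over all members, 12 of 105 probe sets had an unadjusted p of 0.05 or less, 8 lower and 4 higher, beside 7.8% of all 28193 probe sets.

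**Figure D3:**
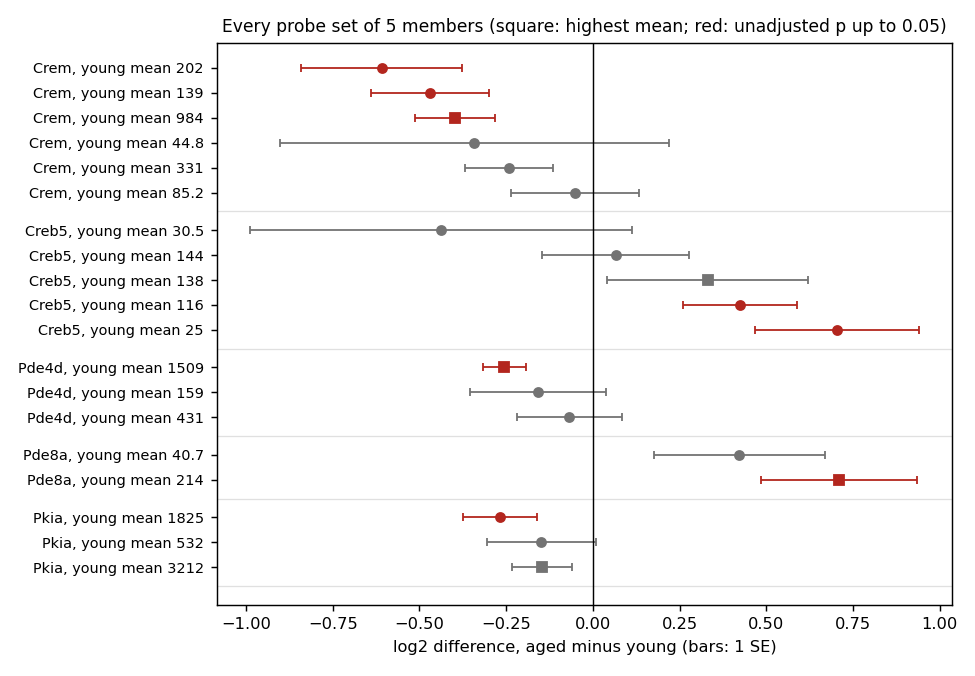
Log2 difference, aged minus young, of every tested probe set of Crem, Creb5, Pde4d, Pde8a and Pkia (points, bars of 1 SE), labelled with its mean signal in young rats. Squares represent the gene in the test, and red marks an unadjusted p up to 0.05: all 6 of Crem lie left of 0, whereas those of Creb5 lie on both sides, from -0.44 to 0.70.

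Creb5, a less studied family member, had the widest disagreement between probe sets. The one that represents it was 95 to 215 in young and 75 to 251 in aged rats, a log2 difference of 0.33 ± 0.29 (SE, unadjusted p = 0.273). Others of Creb5 differed by 0.42 and 0.70, with unadjusted p-values of 0.0244 and 0.0117 over probe sets, and the dim one with a young mean of 30.5 by -0.44. Like Pde8a, Creb5 was highest in aged rats 1 and 4 and lowest in aged rat 2, the aged rats with the most and the least myelin signal, and the part of white matter in its values was not tested. Without aged rat 2 the difference of Creb5 was 0.56 with an unadjusted p of 0.0242.

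Creb1, the factor that gives the family its name, was 983 to 1087 in young and 784 to 1053 in aged rats, a log2 difference of -0.12 ± 0.07 (unadjusted p = 0.117). The coactivators Crtc1, Crtc2 and Crtc3, which move to the nucleus when dephosphorylated, differed by 0.22 ± 0.13, 0.07 ± 0.10 and 0.01 ± 0.09 (log2, SE), with unadjusted p-values of 0.122, 0.522 and 0.947. The median of the 3 coactivators was 0.07 and turned to -0.00 with median centring.

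**Figure D4:**
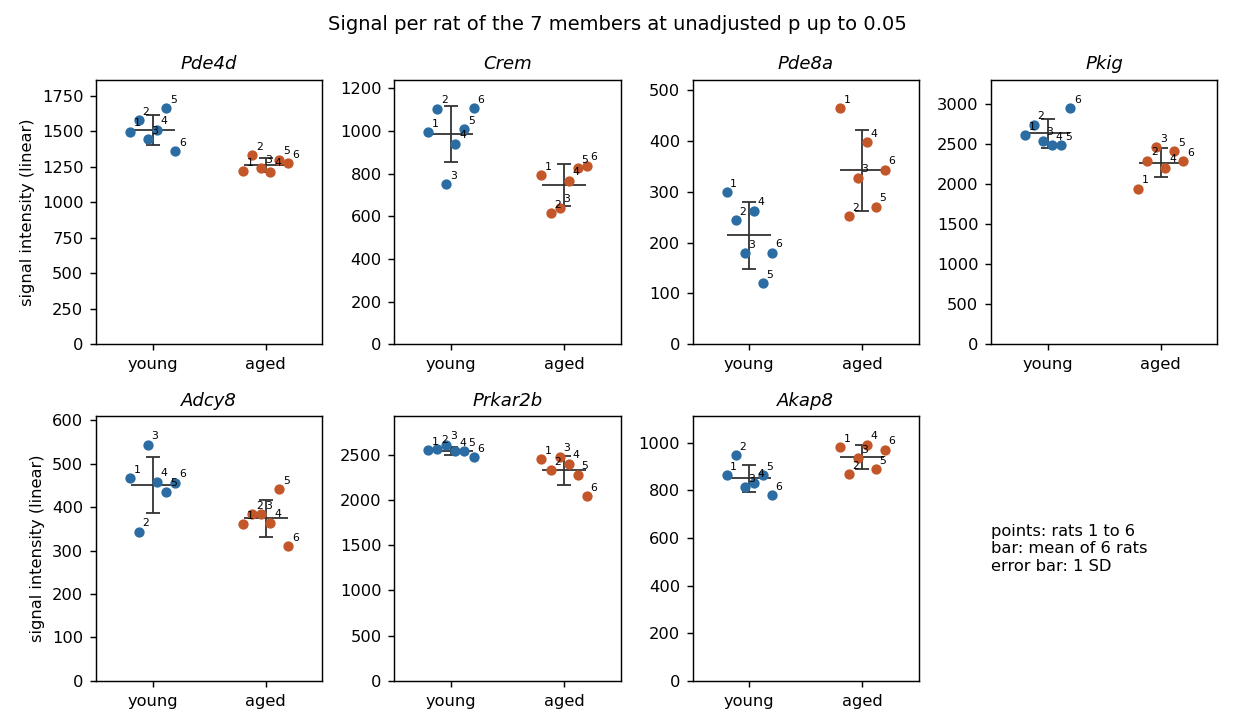
Signal intensity, on a linear axis from 0, of the 7 members at an unadjusted p up to 0.05 in each rat (points numbered 1 to 6, bar and error bar for the mean and SD of 6 rats). Pde4d and Pkig separate the age groups without overlap, whereas in each of the other 5 at least 1 rat lies within the range of the other group.

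The sample codes fall into a lower and a higher series, which hold 3 young with 4 aged and 3 young with 2 aged rats. Each of the 7 called members kept its direction within each series. They were chosen for their difference over these same rats, so this agreement is not a replication. Of the 7, only Pde4d, Crem and Pkig were called in the lower series alone, and none in the higher series alone. Pde4d differed by -0.27 in the lower and -0.23 in the higher series. Crem differed by -0.42 and -0.29, and Pkig by -0.25 and -0.16. Pde8a differed by 0.58 and 0.77, Akap8 by 0.11 and 0.17, Adcy8 by -0.25 and -0.28, and Prkar2b by -0.09 and -0.22.

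The count of members depended on aged rat 2, whose array was least like the rest (mean correlation with the others over genes 0.958, beside 0.962 for aged rat 6 and 0.963 or more for the others). Its median deviation over the members was -0.11, against -0.05 to 0.04 in all other rats. Without aged rat 2, 17 of 59 members were called, 9 higher and 8 lower, beside 7.98% higher and 3.38% lower over all genes. The 9 higher were Akap3, Akap8, Akap13, Creb5, Pde3b, Pde4a, Pde5a, Pde8a and Rapgef4. Those lower were Pde4c, Pde6b and Prkar1b besides the 5 of the full set. Without both aged rats 2 and 6 the counts were 9 higher and 4 lower, beside 5.89% and 3.4% of all genes, and Pde4d, Crem, Pkig, Pde8a and Akap8 were among them. No member passed an adjusted p of 0.05 in either fit.

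Other genes of the pathway, in lists chosen for their place in it, gave 60 genes tested of 73 listed, with 32 higher and 28 lower and a median log2 difference of 0.03. At an unadjusted p of 0.05 or less, 3 of these were called higher and 1 lower, beside 6.49% and 2.62% of all genes. Receptors and peptides that act through cAMP had 4 higher and 9 lower means and no call, led by the serotonin receptor Htr7 at 0.28 ± 0.13 (unadjusted p = 0.0573) and the beta-1 adrenergic receptor Adrb1 at -0.28 ± 0.16 (unadjusted p = 0.107). G proteins had 3 each way, with Gnao1 at -0.13 and Gnaz at -0.05, neither called. The guanylyl cyclases and cGMP kinases had 4 higher and 3 lower with none called, led by the natriuretic peptide receptor Npr1 at 0.75 ± 0.37 (unadjusted p = 0.0634) and the cyclase subunit Gucy1b1 at -0.15 ± 0.08 (unadjusted p = 0.0978). The Rap and Popeye genes, with Rap1a at 0.08 and Rapgef1 at 0.23, and the remaining phosphodiesterase and anchor genes, with Pde6h at 1.35 and Pde6g at 0.32, had none called.

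Substrates of PKA had 2 higher and 5 lower means, and Arpp19, an inhibitor of protein phosphatase 2A when phosphorylated, was called. Arpp19 was 4406 to 5040 in young (median 4663) and 3686 to 4757 in aged rats (median 4187), with a log2 difference of -0.17 ± 0.07 (unadjusted p = 0.0244, adjusted p = 0.481), and the groups overlapped. Ppp1r1a, protein phosphatase inhibitor 1, differed by -0.23 ± 0.11 (unadjusted p = 0.0573). The genes listed as partners of CREB or of its family had 10 higher and 2 lower means, a median of 0.12, and 3 calls, all higher. Of all genes, 56.9% had a higher mean and 6.49% were called higher. The median of the partner genes was 0.05 with 8 higher after median centring, 0.06 with 7 higher in the lower and 0.23 with 10 higher in the higher code series alone, and 0.07 with 7 higher without aged rats 2 and 6. The 3 called genes were Atf1, Crebrf and Ep300. Atf1, a factor closely related to CREB, differed by 0.20 ± 0.06 (unadjusted p = 0.00637). Crebrf, named as a regulator of the family member Creb3 and not of CREB itself, differed by 0.25 ± 0.10 (unadjusted p = 0.0241). The acetyltransferase gene Ep300 differed by 0.14 ± 0.07 (unadjusted p = 0.0494). For Atf1 the young rats ranged from 895 to 1024 and the aged from 1020 to 1229, so that young rat 1 alone overlapped aged rat 2.

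Genes known as targets of CREB, many of them also driven by neuronal activity through other factors, were lower in 16 of 18 tested, with a median log2 difference of -0.25. Only Inhba and Bdnf were called at an unadjusted p up to 0.05. Over all genes, 5708 of 13253 had a lower mean and 2.62% were called lower. Inhba, the activin beta A subunit, was 682 to 1240 in young and 285 to 657 in aged rats, with no overlap, and its log2 difference was -0.997 ± 0.224 (unadjusted p = 0.000834, adjusted p = 0.189). Bdnf was 547 to 899 in young and 346 to 712 in aged rats, with a log2 difference of -0.59 ± 0.18 (unadjusted p = 0.00652, adjusted p = 0.354) and overlapping groups. The list varied within the young group as well: its mean log2 deviation was 0.61 in young rat 2 and -0.58 in young rat 4, and ran from -0.59 to -0.01 in aged rats. In the same young rats 2 and 4, Crem was 1104 and 940. Among aged rats the order was the other way at the ends of the range. Crem was 614, the lowest, in aged rat 2, where the list was highest, and 837, the highest, in aged rat 6, where the list was lowest. The relation of Crem to these genes across rats was not tested.

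**Figure D5:**
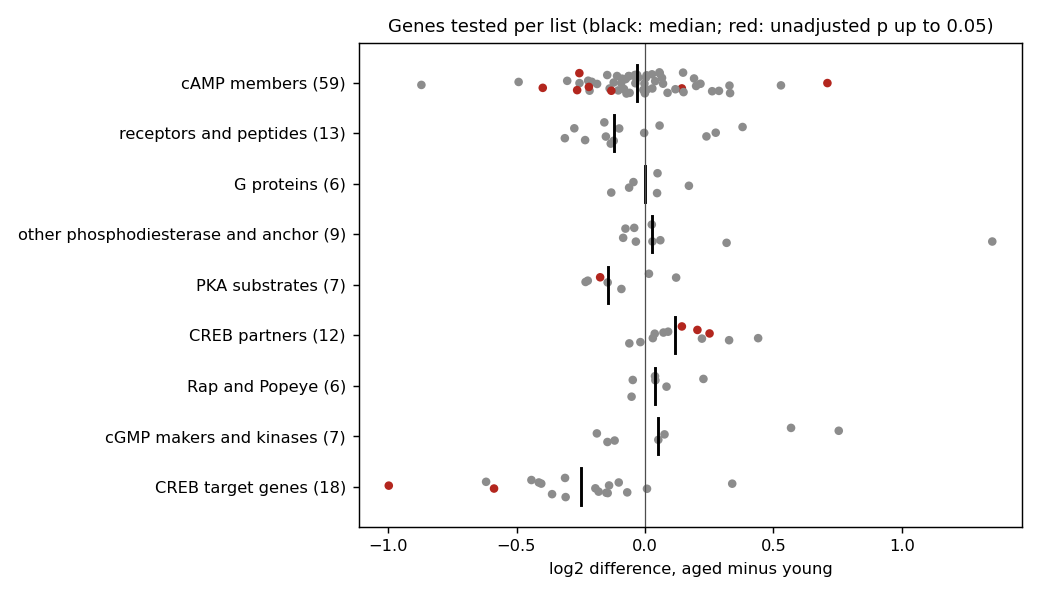
Log2 difference, aged minus young, of each tested gene (points) in the cAMP members and in 8 lists of the pathway and its targets, with the number tested in brackets and the median as a black line. Red marks an unadjusted p up to 0.05, and the median is lowest for CREB target genes, at -0.25, and highest for CREB partners, at 0.12.

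Markers of other cells moved in these samples beside the members. Of the microglial genes 17 of 18 tested had a higher mean in aged rats (median 0.34, 7 called), as had all 12 endothelial genes (median 0.22, 3 called) and all 6 blood genes (median 0.46, 2 called). Of all genes, 56.9% had a higher mean, 6.49% were called higher and 2.62% lower. Of 24 neuronal genes 19 had a lower mean, with a median of -0.08 and 2 called, and their summed signal ranged from 104445 to 124672 in young and from 103502 to 111604 in aged rats. The median of the members, -0.03, lay between that of the neuronal list and that of all genes. The part of cell makeup in the values of the members was not tested.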

How the data were processed

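The values the authors deposited are linear signal intensities of 12 arrays. MAS5, GCRMA and R 2.7.1 appear in the submitters' processing notes, and gcRMA and a scaling target of 500 in the methods; the mean of each deposited array, with 2% trimmed at each end, was 500.1. The order of these steps is not given in the sources used here. Log2 of the intensities was taken with no further normalization, although the planned test assumed log2 values. Gene symbols come from the platform annotation (20832 probe sets with 1 symbol, 436 with several, 9831 with none; only the first kind was used), and promoters from RefSeq tables of build GRCr8. The brightest probe set on average stood for its gene, and genes over a log2 signal of 4.3 on at least 3 of 12 arrays were tested.

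Groups were taken from the sample titles, and replicates are separate rats. Aged and young rats were compared with limma 3.58.1 (lmFit and eBayes, R 4.3.3), in a two-sided test adjusted by Benjamini-Hochberg over the 13253 genes, and the steps were tested on simulated data. The members and lists were chosen with earlier results of these data known. Members were named at an unadjusted p up to 0.05, plus the 3 with the smallest p in each role; others were added to complete a role, after their values were seen. In lists, the 2 genes with the smallest p and any called were named. The number of arrays, 6 per group, limits the precision.

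The alternatives were quantile normalization, median centring, other cutoffs (3.5, 5.5, all arrays, none), averaging all probe sets of a gene, array weights, robust variances with an intensity trend, the t-test of the methods with equal or unequal variances, the subject number and the series of sample codes as blocks, each of the series by itself, and the omission of single rats. The joint omission of aged rats 2 and 6 was chosen after seeing the data. Python 3.11.15 with matplotlib 3.10.9 drew the figures.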

Additional observations from a re-analysis of the deposited data

Results flagged for a closer look

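Among the named members, 68 groups of 6 rats were examined for a single rat far from the others, and 4 were found, where chance alone gives about 1 in 20 groups. Pde1a was 538 in aged rat 6, with the other aged rats at 863 to 1090. Pde1b was 1398 in aged rat 2, with the others at 924 to 1065. Pde6b, near or below the cutoff in every rat, was 8.67 in young rat 2, with the others at 21.4 to 27.7, and 3.27 in aged rat 1, with the others at 10.5 to 17.8. Aged rats 2 and 6 are also those whose arrays were least like the rest.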

How the results depend on the processing

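No named member changed its direction among the 7 called, under any of 28 alternatives, and the smallest adjusted p of a named member over them was 0.117. Members called lower, 5 as deposited, were 11 with median centring and 3 with the mean of probe sets. Members called higher, 2 as deposited, were 1 with median centring, 4 with array weights, 0 and 1 in the lower and the higher code series alone, and 9 without aged rats 2 and 6. The median log2 difference of members was -0.10 with median centring, and all genes called were 638 in the lower code series alone. With each rat left out in turn, members lower ranged from 3 to 8, members higher from 1 to 9, members at an adjusted p under 0.05 stayed at 0, the median from -0.05 to -0.00 and all genes called from 994 to 1506. Pde4d, Crem, Pkig and Pde8a stayed called in all 12 of these fits, and Adcy8, Prkar2b and Akap8 in 5 each. The cause of these changes was not tested. Each single series also held fewer rats, and the part of that was not tested either.

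Subject numbers are shared between age groups but belong to different rats. With the number as a replicate block, members called higher were 5 and lower 4, and Adcy8 (unadjusted p = 0.0516) and Akap8 (unadjusted p = 0.0868) were not called. Same-numbered rats correlated at -0.04 to 0.16, and 4 of 6 numbers correlated best with themselves. The labels give no pairing. All same-numbered rats but number 4 also share a code series, so for them a shared number and a shared series cannot be told apart. Number 4 correlated best with itself, at 0.11, whereas numbers 2 and 5, which share a series, did not. The part of either was not tested. The block was kept as an alternative. The 27 other named members had no call as deposited, and 17 of them were called in at least 1 alternative. At 6 rats per group an absent call does not show an absent difference, and the dimmest members (Pde6a, Pde6b, Pde4c, Akap14) were near the cutoff.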
